A study of Bos taurus with 6 samples.

Results

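The miR-15 and miR-16 family, with its relatives miR-195 and miR-497, was followed here in cumulus cells, the somatic cells that wrap the oocyte and form the cumulus-oocyte complex (COC) with it. Its members were found by name in a table of mature miRNA counts, as the rows for bta-miR-15a, bta-miR-15b, bta-miR-16a, bta-miR-16b, bta-miR-195 and bta-miR-497. These are 6 of the 956 mature and putative miRNAs in the table. Each member had a single row, so no rows had to be summed, and none of the 6 rows carried an arm suffix. The arm that pairs with each member in its hairpin therefore has no value here.

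Bovine COCs from slaughterhouse ovaries were matured in vitro with follicle stimulating hormone, a piece of the cumulus was taken from each, and each oocyte was then fertilized and cultured on its own. Pieces were pooled afterwards by the fate of the oocyte. Of the 6 pools, 3 came from around oocytes that failed to cleave after contact with sperm (Samples A, B and C, not-cleaved) and 3 from around oocytes that reached the blastocyst stage (Samples D, E and F, blastocyst). Both groups shared the same source, medium and maturation, and were set apart by what the oocyte later did. A pool joins several COCs of mixed origin, and the not-cleaved group does not separate oocytes that were not fertilized from those that were fertilized and arrested. Nothing states that the pools came from separate days or herds, and each p-value therefore reflects how far apart these pools lay and no more.

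The family is among the best known brakes on cell growth. Its members are made from precursors that lie in neighbouring pairs, are loaded into Argonaute proteins, and share a seed, the short stretch near the 5′ end that pairs with sites in target mRNAs. They therefore overlap in targets, which in human and mouse cells include the mRNAs of the cyclins D1 and E1, of the kinase WEE1 and of BCL2, a protein that keeps cells from dying. In human, the MIR15A and MIR16-1 pair is often deleted in chronic lymphocytic leukaemia. No sequences are printed, since no file used here holds them.

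All 6 members were matched to precursor genes in RefSeq's genes for assembly ARS-UCD2.0, used only for names and neighbours. MIR15A and MIR16A were neighbours within 10 kb, and both lay inside LOC100847818, a transcribed pseudogene. MIR15B and MIR16B were neighbours inside SMC4, which encodes a subunit of condensin, the complex that compacts chromosomes. MIR195 and MIR497 were neighbours inside LOC107131510, a long non-coding RNA gene. The 3 precursor pairs lie on 3 different chromosomes. The mature forms of miR-16a and miR-16b are near-identical, and no source used here says how reads that match both were divided, so their separate counts are uncertain and their sum is given as well.

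Library totals ran from 2776256 to 8139237 counts and overlapped between the groups. CPM divide a count by the library total in units of 1e6 counts, here with the total scaled by the trimmed mean of M-values (TMM). Sample E stood apart from the rest, and Sample B less clearly so. The authors name Samples B and E as apart in the caption of their principal component plot, but Samples C and E in their text. In Sample E, 20 of the 316 tested miRNAs were more than 3 log2 units from the median of the other 5 libraries, and in Sample B 7 were, against 0 to 4 in the other samples. No family member was among them in any library. The largest shift of a member was 0.52 in Sample B and 0.53 in Sample E, in absolute log2 units, against 0.98 in Sample D, for miR-15b. miR-202, miR-21-5p and miR-155 were listed as markers of cumulus and granulosa cells. Together they were at 453262 to 536903 CPM of the unscaled total in not-cleaved and 533426 to 644676 in blastocyst samples. Most of that sum was miR-21-5p, at 1102521 counts in Sample B to 5003461 in Sample D. miR-155 had 102336 to 345711 counts and miR-202 had 22649 to 65607, so the sum says little about miR-202. Members of this family are abundant in blood cells, so the blood cell markers bear on it: miR-144 and miR-223 had 0 counts in all 6 libraries, which allows up to 3 counts per library, miR-451 at most 5, and the 4 markers together 0 to 25. The pair of endothelial markers summed to 8 to 18 counts, those of smooth muscle and stroma to 53 to 115, and those of the oocyte and early embryo to 0 to 40. Single entries carried the last sums. miR-143 had 53 to 114 counts and miR-145 at most 4. Of the oocyte and embryo markers, miR-371 had 0 to 33 counts and no other had more than 5.

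The family was present in every library at moderate abundance, and its order from highest to lowest was nearly fixed. miR-195 ranked 59th by mean CPM among the tested miRNAs, miR-16a 74th, miR-16b 91st, miR-15b 116th, miR-497 117th and miR-15a 153rd. The first 3 and the last of these held the same order in all 6 libraries. miR-15b and miR-497 changed places, with miR-15b the higher in Samples B, C and D and miR-497 the higher in Samples A, E and F. These levels are counts of mature species of similar length, and ligation of adapters to different sequences was not calibrated, so they order the reads and not the molecules. The lowest count of any member in any library was 164.

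The family as a whole took a very small part of the counts and did so in both fates. Its summed counts were 0.139% of the total for Sample A (Wilson 95% interval 0.136% to 0.141%), 0.175% for Sample B and 0.157% for Sample C. Among blastocyst samples they were 0.183% for Sample D (0.180% to 0.186%), 0.129% for Sample E (0.125% to 0.133%) and 0.149% for Sample F. Not-cleaved samples averaged 0.157% ± 0.018 (SD, n = 3), and blastocyst samples 0.153% ± 0.027 (SD, n = 3). The groups overlapped, and both the highest and the lowest library were blastocyst samples. These intervals cover counting error only and take each count as a separate draw. PCR copies were not marked, so the intervals may be too narrow even for that. They were narrow beside the distance between libraries.

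miR-21-5p alone took 39.7% to 61.5% of the counts, and the denominator mattered. With miR-21-5p left out of the total, the family took 0.269%, 0.291% and 0.303% in Samples A, B and C and 0.474%, 0.246% and 0.331% in Samples D, E and F. The difference of blastocyst minus not-cleaved moved from -0.004 points to 0.063 points. That rests on Sample D, where miR-21-5p took its largest share and the family was highest by either denominator. Without Sample D the difference was 0.0008 points, a comparison added after the values were seen.

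**Figure D1:**
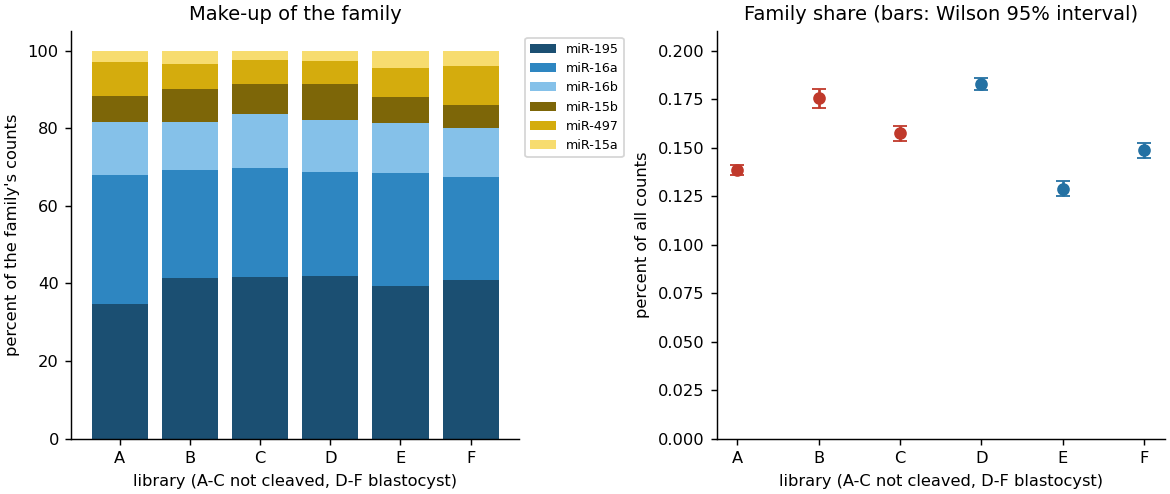
Left, percent of the family's counts held by each member in each library. Right, percent of all counts held by the family, with Wilson 95% intervals (red, not-cleaved; blue, blastocyst). miR-195 and miR-16a held 67.4% to 69.8% of the family in every library, and the family share ran from 0.129% in Sample E to 0.183% in Sample D.

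The most abundant members together held a similar part of the family in all libraries. miR-195 and miR-16a together held 68.6% ± 0.884 (SD, n = 6) of the family's counts, and miR-16b held 13.2% ± 0.581. miR-195 alone held 34.6% in Sample A and 39.4% to 41.9% in the other 5. miR-16a alone held 33.3% in Sample A and 26.6% to 29.0% in the other 5, so their shifts in Sample A went opposite ways. miR-15b held 5.73% to 9.16%, miR-497 6.14% to 10.1% and miR-15a 2.44% to 4.55%.

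miR-195, the most abundant member and a repressor of cell cycle genes in the mouse heart, was at 464.1, 618.5 and 713.4 TMM-scaled CPM in Samples A, B and C. It was at 803.6, 517.4 and 632.5 in Samples D, E and F. Sample A was lowest and Sample D highest, and the other 4 samples, from both groups, lay between them. The log2 fold change of blastocyst over not-cleaved was 0.12 (SE 0.25, adjusted p = 0.991 in edgeR's quasi-likelihood test over all tested miRNAs).

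miR-497, its precursor neighbour, was at 119.3, 96.2 and 107.3 TMM-scaled CPM in Samples A, B and C and at 117.8, 95.6 and 155.7 in Samples D, E and F. Sample F alone was high, and Samples B and E were lowest and close to each other. The log2 fold change was 0.19 (SE 0.26, edgeR adjusted p = 0.991). Without Sample F it was 0.00.

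miR-16a was the steadiest member. It was at 445.5, 418.7 and 481.7 TMM-scaled CPM in Samples A, B and C and at 514.4, 380.8 and 411.9 in Samples D, E and F. The highest library was 1.35 times the lowest, and the not-cleaved samples all lay inside the range of the blastocyst samples. Its log2 fold change was -0.04 (SE 0.19, edgeR adjusted p = 0.998).

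miR-16b was at 183.7, 184.7 and 236.8 TMM-scaled CPM in Samples A, B and C and at 258.5, 171.0 and 197.7 in Samples D, E and F. Samples D and C were highest and Sample E was lowest, the same places that miR-16a gave them. The log2 fold change was 0.05 (SE 0.24, edgeR adjusted p = 0.998). The sum of miR-16a and miR-16b does not depend on how shared reads were divided, provided each read was counted for only 1 of them. Whether that was so is not stated in any source used here. The sum averaged 650.4 ± 60.4 TMM-scaled CPM in the not-cleaved group (SD, n = 3) against 644.8 ± 115 in the blastocyst group (SD, n = 3). Counted as a single feature, the pair had a log2 fold change of -0.01 (SE 0.20, edgeR adjusted p = 0.999).

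miR-15b, from the SMC4 locus, varied most. It was at 88.7, 127.3 and 130.7 TMM-scaled CPM in Samples A, B and C and at 175.8, 88.1 and 88.8 in Samples D, E and F. Samples A, E and F sat within 1 CPM of each other, and Sample D was 1.995 times the lowest. The not-cleaved Samples B and C lay between them. The log2 fold change was 0.03 (SE 0.35, edgeR adjusted p = 0.998). Leaving out Sample D turned it to -0.38, and leaving out Sample A to -0.12 (edgeR adjusted p = 0.970 and 0.974).

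miR-15a, the least abundant member, came closest to separating the fates and did not do so. It was at 38.4, 51.0 and 41.7 TMM-scaled CPM in Samples A, B and C and at 49.3, 59.7 and 62.4 in Samples D, E and F. Sample B, not-cleaved, lay above Sample D, blastocyst, and all other blastocyst samples lay above all not-cleaved samples. The group means of 43.7 ± 6.53 (SD, n = 3) and 57.1 ± 6.93 (SD, n = 3) thus overlapped in their libraries, and the log2 fold change was 0.39 (SE 0.26, edgeR adjusted p = 0.991). It was 0.66 under upper-quartile scaling, where the median over all tested miRNAs was 0.25, and 0.31 to 0.51 with any library left out, the lowest adjusted p of the fits with a library left out being 0.886.

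**Figure D2:**
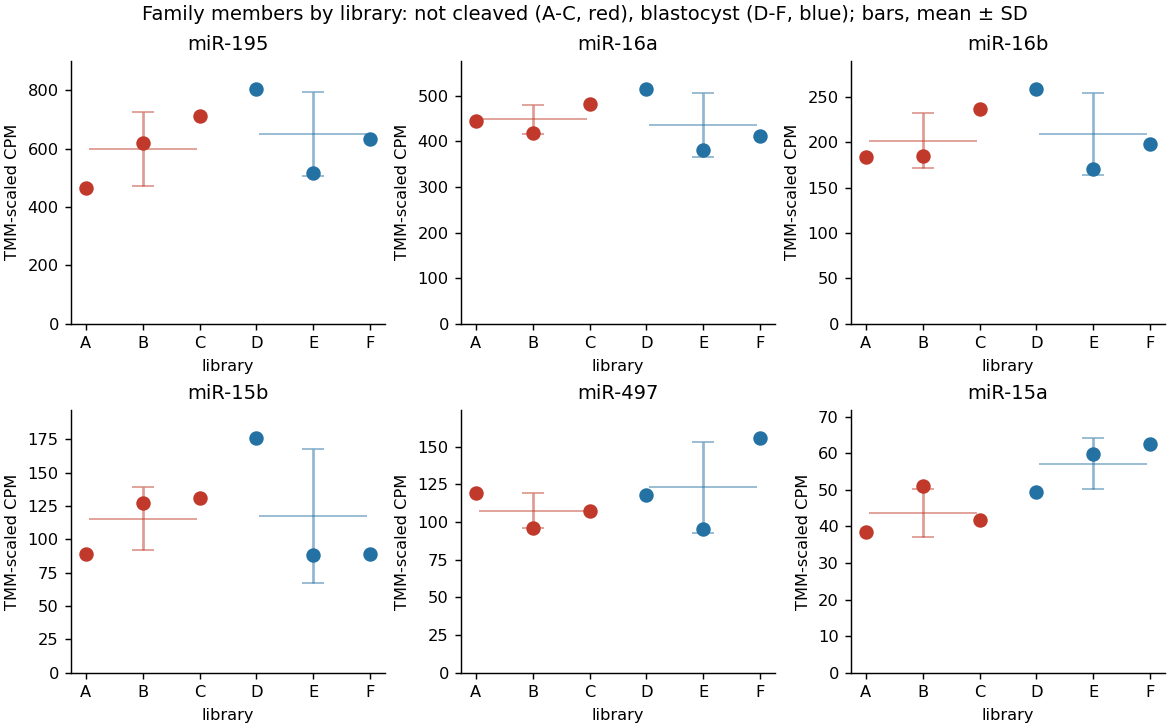
TMM-scaled CPM of each member in each library, from the most to the least abundant (red, not-cleaved; blue, blastocyst; bars, mean ± SD of 3 libraries; each vertical axis starts at 0). The groups overlap for all 6 members, and Sample D is highest for miR-195, miR-16a, miR-16b and miR-15b but not for miR-15a or miR-497.

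Of the 6 members, all of which passed the expression filter, 0 were called by edgeR's quasi-likelihood test at an adjusted p of 0.05, where the share of all 316 tested miRNAs called was 0.00%. None of the 6 had an unadjusted p under 0.05, against 8 of all 316 (2.53%), and DESeq2 and edgeR's exact test also called 0 miRNAs, with 4 each at an unadjusted p under 0.05. The groups overlapped for every member, so 0 of 6 stood clear, against 28 of 316 (8.86%) of all tested miRNAs. The median log2 fold change of the members was 0.09, with 5 point estimates above 0 and 1 below, and that of all tested miRNAs was -0.02, with 148 above and 168 below. The scaling sets these signs: with upper-quartile factors 6 of 6 members lay above 0, with library totals alone 3 did, and the median of the members was 0.10, 0.05 and 0.11 above that of all tested miRNAs under TMM, upper-quartile factors and totals.

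**Figure D3:**
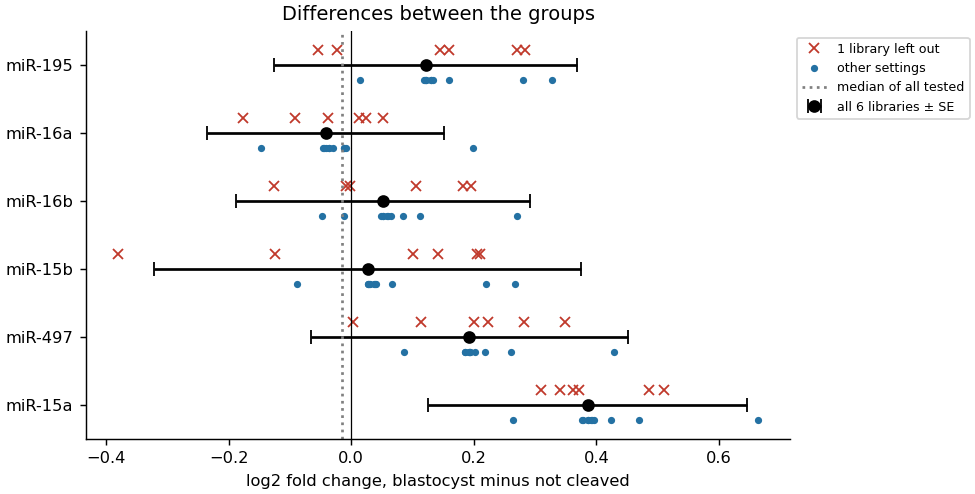
Log2 fold change of blastocyst over not-cleaved for each member. Black points and bars give the value from all 6 libraries ± SE, red crosses the values with 1 library left out, blue points the other settings, and the dotted line the median of all tested miRNAs (-0.02). miR-15a and miR-497 keep their sign throughout, while miR-15b reaches -0.38 without Sample D and miR-195, miR-16a and miR-16b cross 0.

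For 5 of the 6 members the spread between libraries was under that of the median miRNA. The coefficient of variation of TMM-scaled CPM over the 6 libraries was 11.1% for miR-16a, and 4.11% of the tested miRNAs had a lower value. It was 16.8% for miR-16b, 18.8% for miR-15a, 19.3% for miR-497, 19.9% for miR-195 and 30.2% for miR-15b. The median of the members was 19.1% and that of all tested miRNAs 27.0%. Scarcer miRNAs carry more counting error, whose part in this comparison was not tested.

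The ratio of a pair of members within a library is free of any scaling between libraries. The tightest ratio was that of miR-16a to miR-16b, whose precursors lie on different chromosomes. It was 2.42, 2.27 and 2.03 in Samples A, B and C and 1.99, 2.23 and 2.08 in Samples D, E and F, with an SD of 0.11 on the log2 scale against a median counting error of 0.06. How reads that match both were divided would itself bear on this ratio and was not tested. miR-16b to miR-195, also from different precursor pairs, came next with an SD of 0.14.

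By the counts as given, members whose precursors are neighbours did not keep the steadiest ratios. Of the neighbour pairs, only miR-195 with miR-497 is free of the doubt over reads that match both miR-16a and miR-16b. miR-195 was 3.89, 6.43 and 6.65 times miR-497 in Samples A, B and C and 6.82, 5.41 and 4.06 times in Samples D, E and F, with an SD of 0.36 on the log2 scale. Samples A and F, of different groups, had the low ratios. The ratio of miR-15a to miR-16a was 0.086, 0.122 and 0.087 in Samples A, B and C and 0.096, 0.157 and 0.152 in Samples D, E and F, with an SD of 0.39. It was highest in Samples E and F, while Sample D stood with the not-cleaved samples. The ratio of miR-15b to miR-16b was 0.483, 0.689 and 0.552 in Samples A, B and C and 0.680, 0.515 and 0.449 in Samples D, E and F, with an SD of 0.26.

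Over the 15 possible pairs, the 3 neighbour pairs had SDs of 0.26 to 0.39 with a median of 0.36, and the other 12 had SDs of 0.11 to 0.55 with a median of 0.31. The pairs share members and libraries, so no test was made. Pairs with miR-16a or miR-16b, neighbour pairs among them, also carry the doubt over reads that match both. Each of the 15 SDs was above its own median counting error. The widest ratio was that of the near relatives miR-15a and miR-15b, with an SD of 0.55. miR-15a was 0.280 times miR-15b in Sample D and 0.703 times in Sample F, both blastocyst samples, and these were the lowest and the highest of the 6 values.

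**Figure D4:**
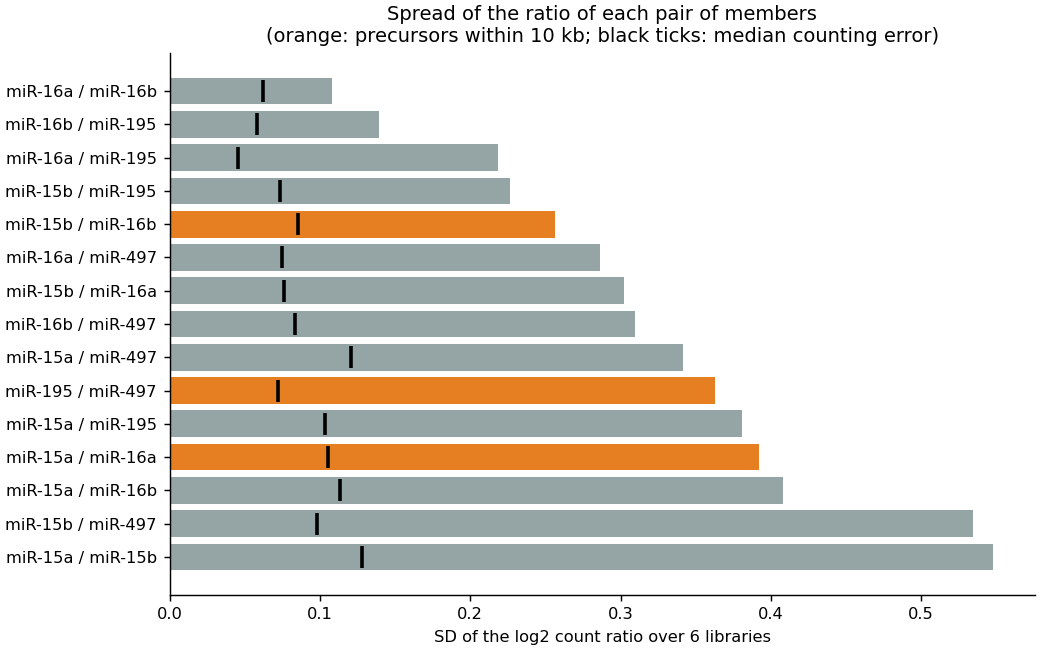
SD over 6 libraries of the log2 ratio of counts for each of the 15 pairs of members (bars), with the median counting error of that ratio (black ticks). Orange bars are pairs whose precursors lie within 10 kb. The shortest bar is miR-16a with miR-16b (0.11), the longest miR-15a with miR-15b (0.55), and the 3 orange bars lie between 0.26 and 0.39.

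For 6 ratios the groups were compared by two-sided exact permutation tests, in which 3 samples against 3 cannot give a p below 0.1. The log2 ratio of miR-15a to miR-16a was -3.37 ± 0.286 in not-cleaved and -2.93 ± 0.397 in blastocyst samples (SD, n = 3 each, exact p = 0.2, and 0.75 adjusted over the 6 ratios). Its difference of 0.44 was 0.67 without Sample D, 0.61 without Sample B, and 0.31 to 0.36 with any other sample left out. The log2 ratio of miR-15a to miR-15b was -1.39 ± 0.230 and -0.97 ± 0.751 (exact p = 0.4), and its difference of 0.42 was 0.86 without Sample D, 0.22 without Sample E and 0.19 without Sample F. That of summed miR-15 to summed miR-16 was -2.04 ± 0.275 and -1.90 ± 0.116 (exact p = 0.5), and its difference of 0.14 was 0.01 without Sample A, 0.29 without Sample B and 0.09 without Sample D. The ratios of miR-16a to miR-16b, miR-15b to miR-16b and miR-195 to miR-497 differed by -0.09, -0.07 and -0.05, with an exact p of 0.4, 0.7 and 1. No ratio separated the groups, and the adjusted values ran from 0.75 to 1.

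The wider miR-16 group also holds miR-424 and miR-503, which are made from a shared precursor cluster on the X chromosome in mammals and also act on cell cycle genes. miR-503-5p had counts of the order of those of miR-16b, with 1626, 793 and 593 counts in Samples A, B and C and 2866, 711 and 692 in Samples D, E and F. Its TMM-scaled CPM averaged 198.1 ± 46.5 (SD, n = 3) for not-cleaved and 255.9 ± 98.9 (SD, n = 3) for blastocyst pools, with Sample D highest at 369.9. Its log2 fold change was 0.37 (SE 0.33, edgeR adjusted p = 0.991). miR-424-5p was scarce, at 16 to 34 counts in 5 libraries and 113 in Sample D, and its log2 fold change was 0.36 (SE 0.60, edgeR adjusted p = 0.991). Sample D was the highest library for both, as for miR-15b, miR-16a, miR-16b and miR-195. The other arm, miR-424-3p, had more counts (62 to 354) and did not share this order, with TMM-scaled CPM of 19.1 in Sample B, 20.5 in the next lowest, Sample D, and 59.7 at most, in Sample E, and its log2 fold change was 0.31 (SE 0.50, edgeR adjusted p = 0.991).

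The miRNAs outside the family whose levels followed each member most closely were found from the root mean square difference of log2 CPM over the 6 libraries, each miRNA centred on its own mean. They are a description, since the closest of 310 will always be close. For miR-16a they were miR-152 (0.09), miR-125b (0.11) and miR-6119-5p (0.11), where the median over all 310 was 0.41. For miR-16b they were miR-27b (0.09), miR-125b (0.11) and miR-19b (0.14). miR-195 was followed by miR-20a (0.09), miR-27b (0.12) and miR-106a (0.12), and miR-15b by miR-194 (0.07), miR-132 (0.15) and miR-17-5p (0.15). miR-19b, miR-20a and miR-17-5p share a cluster with miR-92a, and miR-106a comes from a paralogue of it.

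For the remaining members, the closest to miR-497 were the putative miRNA put-45 (0.09), miR-27a-3p (0.09) and miR-2285m (0.10). miR-2285m was scarce, at a geometric mean of 4.31 CPM, so its distance carries more counting error than that of put-45 or miR-27a-3p. The closest to miR-15a were miR-10b (0.18), miR-3431 (0.19) and miR-505 (0.19). Every member had an outside miRNA nearer to it than its nearest fellow member. Of the 310, 1 lay nearer to miR-16a than miR-16b did, 1 nearer to miR-16b than miR-16a did, 3 nearer to miR-195 than miR-16b did, and 8 nearer to miR-15b than miR-195 did. For miR-497 the number was 43, with miR-16a as nearest member (0.26), and for miR-15a it was 47, with miR-497 as nearest member (0.31). With 310 outside miRNAs against 5 fellow members, these numbers are a description only, and the values of miR-16a and miR-16b carry the doubt over reads that match both.

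Other miRNAs that act on growth were taken as lists. Of 16 miRNAs known to restrain growth, 14 were tested and 0 were called in either direction by edgeR at an adjusted p of 0.05, with 1 at an unadjusted p under 0.05, 2 point estimates above 0, 12 below and a median log2 fold change of -0.22. With upper-quartile factors, which put 241 of all 316 above 0, 11 of the 14 lay above 0, and with library totals alone 2 did. Relative to that of all tested miRNAs, the median of the 14 was -0.21 under TMM, -0.17 with upper-quartile factors and -0.20 with library totals alone. The most abundant members of the list were let-7f, let-7i, let-7g and let-7a-5p, with log2 fold changes of -0.31 (SE 0.19), -0.23 (SE 0.22), -0.28 (SE 0.20) and -0.22 (SE 0.32). Much of this list is let-7 miRNAs, so its point estimates are not separate observations. Of 12 miRNAs known to promote growth, all 12 were tested and 0 passed in edgeR, with 1 at an unadjusted p under 0.05, 6 above 0, 6 below and a median of 0.03, while 10 lay above 0 with upper-quartile factors and 4 with library totals alone. There the most abundant were miR-21-5p, miR-92a, miR-25 and miR-20a, with log2 fold changes of 0.36 (SE 0.22), -0.15 (SE 0.19), 0.07 (SE 0.22) and 0.11 (SE 0.20). Among all 316 tested miRNAs under TMM, edgeR called 0, and 8 (2.53%) had an unadjusted p under 0.05. Of these 316, 148 lay above 0 and 168 below, and the median was -0.02. DESeq2 and edgeR's exact test called none of the listed miRNAs either.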

How the data were processed

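The authors deposited whole-number counts per miRNA entry for 6 small RNA libraries, without normalization. Libraries were made with a NEBNext kit, amplified by PCR, size-selected and sequenced on an Illumina NextSeq instrument, and miRNAs were identified by miRBase. The aligner, counter and build were not given in the sources used here. Letters and groups came from column names, which tie no column to a single sample label. The authors' own comparison (fold changes, p-values, FDR values and group mean counts) and their heat map values were not used.

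Entries of the same mature miRNA were summed (1055 entries, 956 miRNAs), filtered by filterByExpr (316 kept, 99.99% of counts), scaled by TMM and tested with edgeR 4.0.16 (quasi-likelihood, Benjamini-Hochberg at 0.05) in R 4.3.3. The SE is the absolute log2 fold change over the square root of F. Log2 CPM used a prior count of 2. Ratios needed 10 counts in each library and were compared by exact permutation tests (scipy 1.17.1). Counting error of a log2 ratio is the Poisson standard error. Intervals are Wilson 95%. The test was checked on simulated counts with 200 changed miRNAs. All of those changes were larger than the differences seen for the members, and no simulated library stood apart as Sample E and, less clearly, Sample B did. The check therefore does not bear on small differences.

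Totals of 2776256 to 8139237 counts set the precision. Alternatives were DESeq2 1.42.0, its size factors, upper-quartile factors, library totals, a fit without miR-21-5p, edgeR's exact test, 2 more filters on low counts, entries as deposited, miR-16a and miR-16b together, each library left out, and Samples B and E left out. Named miRNAs were the members, 3 closest patterns for each member with a mean of at least 50 counts, 4 of each list, and markers. miR-424 and miR-503 were named after their values were seen, in place of a search by seed that no sequence table allowed. Members and lists were chosen with earlier results of these data known. Ratios of miRNA arms could not be computed.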

Additional observations from a re-analysis of the deposited data

How the results depend on the processing

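In edgeR and DESeq2, 0 miRNAs passed the threshold under any of the 17 alternatives (3 to 17 at an unadjusted p under 0.05), and the adjusted p of the members ran from 0.886 to 1. Scaling set the sign of small differences: the median of all tested miRNAs moved from -0.02 to 0.25 with upper-quartile factors and to -0.12 with library totals alone. miR-16a turned to 0.20 with upper-quartile factors, miR-15b to -0.089 and miR-16b to -0.048 with library totals, and miR-16b to -0.012 when counted with miR-16a. miR-15a was at 0.26 with library totals and 0.66 with upper-quartile factors, or 0.39 and 0.42 above the median of all. With miR-21-5p out of the total, the family share differed by 0.063 points.

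With 1 library left out, log2 fold changes ran from 0.31 to 0.51 for miR-15a, -0.38 to 0.21 for miR-15b, -0.18 to 0.051 for miR-16a, -0.13 to 0.20 for miR-16b, -0.054 to 0.28 for miR-195 and 0.00 to 0.35 for miR-497, and the difference in family share from -0.018 to 0.009 points. The log2 ratio difference ran from -0.24 to 0.064 for miR-15b to miR-16b and from -0.30 to 0.14 for miR-195 to miR-497, which without Samples B and E were 0.098 and 0.0495. It ran from 0.19 to 0.86 for miR-15a to miR-15b, 0.31 to 0.67 for miR-15a to miR-16a, 0.01 to 0.29 for summed miR-15 to miR-16 and -0.16 to -0.03 for miR-16a to miR-16b. The exact p of the ratios ran from 0.2 to 1 over the alternatives, and fewer libraries raise the smallest p possible. The groups share no replicate number in the labels, and no paired analysis was possible because the columns carry none. With 3 pools a group, the SE of 0.19 to 0.35 limits what could be told apart.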
